A study of Mus musculus with 24 samples.

Results

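The 9 genes described here encode the lymphotoxin beta receptor (Ltbr) and the proteins through which it signals to the non-canonical branch of NF-κB: the adaptor and ligase genes Traf2, Traf3, Birc2 and Birc3, the kinase genes Map3k14 and Chuk, and the transcription factor genes Relb and Nfkb2. They were chosen by symbol, and all 9 of 9 were found among the 22609 gene symbols counted in each library. RNA sequencing of polyadenylated RNA had been done on 24 libraries of male C57 mice aged 8 to 12 weeks, from punch biopsies of hind paw skin, from dorsal root ganglia (DRG) L3 to L5 of the injected side, which hold the cell bodies of sensory neurons, and from lumbar spinal cord. The mice had been given 10 µg per injection of an agonist antibody to LTβR, or control IgG, into the sole of the hind paw.

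Paw skin and DRG each had 3 groups of 3 libraries: a control group taken 1 day after IgG, a day-1 group taken 1 day after 1 injection of the agonist, and a day-6 group taken after 2 injections. Spinal cord was sampled at both days, with 3 libraries each, and has no IgG group, so that agonist and control were not compared there. The day-6 groups differ from the others in both time and number of injections, and these cannot be told apart. The labels differ on whether the 6 days run from the first injection or from both, so day 6 is used as the name of the group. No label gives a genetic change or a Cre driver; all groups share strain and sex. The libraries are numbered within a group but are not said to be separate animals, so a p-value here measures spread between libraries, which may be technical.

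LTβR is a receptor of the tumour necrosis factor receptor family, carried mainly by stromal, epithelial, endothelial and myeloid cells, and its ligands are made mainly by lymphocytes. In resting cells TRAF2, TRAF3 and the cellular inhibitor of apoptosis proteins cIAP1 and cIAP2 (encoded by Birc2 and Birc3) form a complex that marks the kinase NIK (Map3k14) for degradation. Engagement of the receptor draws this complex away, NIK accumulates and activates IKKα (Chuk), and the p100 precursor encoded by Nfkb2 is cut to p52, which enters the nucleus with RelB. Much of this regulation acts on proteins, which these RNA counts do not measure.

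Libraries of paw held 24.2 to 41.0, those of DRG 21.6 to 34.2 and those of spinal cord 15.7 to 26.3 times 1000000 reads placed in genes. The labelled tissues carried their own markers: 8 keratinocyte genes summed to between 53560 and 99270 CPM (counts per 1000000 reads in genes, after TMM scaling) in paw, 9 sensory neuron genes to between 6725 and 8261 CPM in DRG, and 10 genes of spinal neurons and glia to between 2511 and 3095 CPM in spinal cord. Skeletal muscle RNA varied between libraries of the same group, with 10 muscle genes at 164 to 18450 CPM in paw controls and 73.8 to 4039 CPM in DRG controls. DRG control 1 had 31.5% of its uniquely placed reads outside annotated features, against 13.1 to 13.8% in the other 8 DRG libraries. In whole tissue, more cells of a type and more RNA per cell cannot be told apart. All CPM below are scaled within a tissue unless said otherwise.

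In paw skin, RNA of the transcription factor pair at the end of the pathway lay above every control library on both days, and that of the receptor and IKKα overlapped the controls. Relb stood at 13.2, 15.7 and 14.7 CPM in the 3 control libraries, at 38.1, 41.1 and 36.3 CPM on day 1 and at 27.5, 21.5 and 25.2 CPM on day 6. The 3 groups did not overlap: every day-1 library was above every day-6 library, and every day-6 library above every control. Nfkb2 was at 27.2, 29.5 and 24.1 CPM in controls, at 67.3, 66.8 and 54.6 CPM on day 1 and at 70.9, 51.6 and 51.9 CPM on day 6. Both agonist groups were above all controls for Nfkb2, while day 1 and day 6 overlapped.

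The fold changes on day 1 were 2.66 for Relb (95% interval 2.20 to 3.20) and 2.34 for Nfkb2 (1.84 to 2.97). Of the 15287 genes tested in paw, these had the smallest p-values, yet the quasi-likelihood test of edgeR, with Benjamini-Hochberg adjustment over all genes, passed Relb (adjusted p = 0.0157) and not Nfkb2 (adjusted p = 0.140). Relb was 1 gene of 1 called, a background of 0.00654% of genes tested; 1626 genes had an unadjusted p under 0.05. On day 6 both rose, Nfkb2 by 2.16-fold (1.70 to 2.74, adjusted p = 0.0209) and Relb by 1.70-fold (1.42 to 2.05, adjusted p = 0.0314), 2 of 9 members against 0.706% of all genes tested. Relb fell between the days, to 0.64 of its day-1 level (adjusted p = 0.0459; 1 of 9 members, against 1.03% of all genes tested), and Nfkb2 had a ratio of 0.92 with an interval of 0.73 to 1.17.

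The paw calls rest on few libraries. The log2 fold change of Relb on day 1 stayed between 1.36 and 1.47 whichever of the 6 libraries was left out, but its adjusted p was under 0.05 in 1 of the 6 fits, that without paw control 1, and reached 0.0973 in the other 5. Relb on day 6 did not pass in any of its 6 fits (adjusted p up to 0.141), nor did its difference between the days (up to 0.192), and Nfkb2 on day 6 passed in 2 of 6, without control 1 and without day-6 library 3 (up to 0.0911 in the others). Fitting only the 2 groups compared ended the calls of Relb on day 1 and on day 6 (adjusted p = 0.0817 and 0.0920) and of Nfkb2 on day 6 (adjusted p = 0.0687). With the skeletal muscle score as a covariate, these 3 calls and that of Relb between the days stayed past the threshold (adjusted p = 0.0197, 0.0208, 0.0208 and 0.0224).

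**Figure D1:**
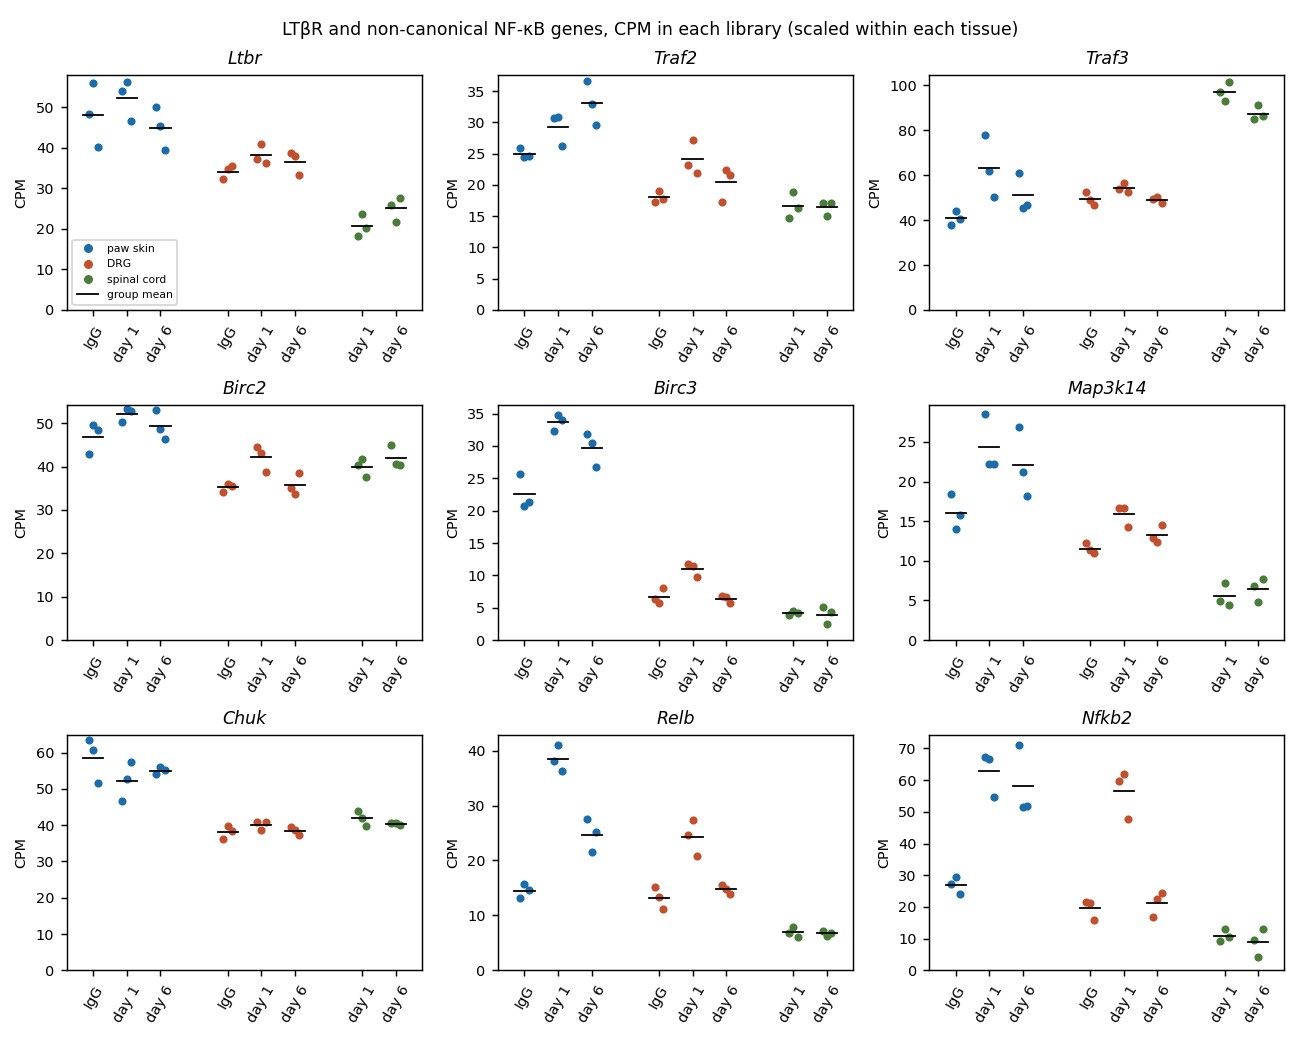
CPM of the 9 genes (y axes, linear, from 0, 1 panel per gene) in each of 24 libraries by group (x axes); points are libraries, black lines group means of 3, colours tissues, each tissue scaled on its own. The Relb and Nfkb2 points of paw day 1 and DRG day 1 lie above every control point of their tissue, and DRG day 6 lies back among its controls.

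RefSeq promoter windows (GRCm38.p6, 250 bases before to 50 after each start) were matched by symbol for 8 of the 9 genes, in 11 windows; Relb had none in the table. They were searched on both strands for GGG and TTCC with any 3 bases between them, a common form of the κB motif that NF-κB dimers bind. The motif lay in 6 of the 11 windows, from Traf2, Traf3, Chuk and Nfkb2, and in 5.56% of all 32851 windows of 300 bases. The match before the third start of Nfkb2, GGGACTTTCC, was then searched letter for letter, a choice made after it was seen; it lay in 2 windows of Nfkb2, which overlap and share this site, in no window of another member and in 0.155% of all windows. The sequences below are printed because Nfkb2 had the largest log2 fold change of the 9 in DRG on day 1, Chuk holds the motif and passed no test between days, and Birc3 holds none and was higher on day 1 in both tissues without overlap. Capitals mark the matches, GGAATTCCCC being a match on the other strand.
Nfkb2, 60 bases before its first start, chr19:46304677-46304736, plus strand: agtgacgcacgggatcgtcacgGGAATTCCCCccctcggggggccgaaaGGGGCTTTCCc
Nfkb2, 235 to 206 bases before the third start, chr19:46305695-46305724, plus strand: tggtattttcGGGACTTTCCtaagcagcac
Chuk, 90 to 31 bases before its start, chr19:44107508-44107567, minus strand: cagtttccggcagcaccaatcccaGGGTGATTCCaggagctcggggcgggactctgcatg
Birc3, 60 bases before its start, chr9:7873171-7873230, minus strand: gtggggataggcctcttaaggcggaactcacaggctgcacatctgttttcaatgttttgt
A match describes these letters and is not evidence of binding, and a window without one says nothing about the factor.

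Among the adaptors in paw, Birc3 and Traf3 were higher on day 1 without passing the test. Birc3, which encodes cIAP2, was at 25.7, 20.7 and 21.3 CPM in controls, at 32.4, 34.8 and 34.0 CPM on day 1 and at 31.8, 30.4 and 26.7 CPM on day 6. Neither agonist group overlapped the controls, and the log2 fold changes were 0.58 ± 0.11 on day 1 (SE, edgeR adjusted p = 0.326) and 0.39 ± 0.11 on day 6 (adjusted p = 0.202). Traf3, the adaptor that holds NIK in the degrading complex, was at 38.0, 43.8 and 40.4 CPM in controls and spread widely on day 1, at 78.0, 61.7 and 50.1 CPM. Its day-1 log2 fold change was 0.64 ± 0.17 (adjusted p = 0.364), and on day 6, at 61.0, 45.4 and 46.8 CPM, it was 0.33 ± 0.17 (adjusted p = 0.620).

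Traf2, which recruits the cIAP proteins to the complex, was at 24.5 to 25.9 CPM in paw controls, 26.2 to 30.9 CPM on day 1 and 29.7 to 36.6 CPM on day 6. It was the adaptor with its larger value on the later day, with log2 fold changes of 0.23 ± 0.11 (adjusted p = 0.484) and then 0.40 ± 0.11 (adjusted p = 0.176). Birc2, encoding cIAP1, had 0.15 ± 0.09 and 0.07 ± 0.09 on the log2 scale (adjusted p = 0.538 and 0.890).

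The kinase genes differed from each other in paw. Map3k14, encoding NIK, was at 18.5, 14.1 and 15.8 CPM in controls, at 28.5, 22.3 and 22.3 CPM on day 1 and at 26.8, 21.2 and 18.2 CPM on day 6. Its log2 fold changes were 0.60 ± 0.17 on day 1, where the groups did not overlap, and 0.46 ± 0.17 on day 6, where they did (adjusted p = 0.367 and 0.415). Chuk, encoding IKKα, was at 63.5, 60.7 and 51.7 CPM in controls and at 46.7, 52.7 and 57.3 CPM on day 1, with a log2 fold change of -0.17 ± 0.10 (adjusted p = 0.556). The receptor gene Ltbr had intervals for its fold change of 0.87 to 1.36 on day 1 and 0.75 to 1.17 on day 6.

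Counted over the 9 genes, 7 had every paw day-1 library above every control, all but Ltbr and Chuk, against 6.40% of all genes tested, and 0 had every library below, against 8.60%. On day 6 the groups did not overlap for 5 of 9, namely Traf2, Traf3, Birc3, Relb and Nfkb2, against 8.22%, and Birc3 and Relb (2 of 9) had every day-6 library below every day-1 library, against 9.57%. The median log2 fold change of the 9 was 0.58 on day 1 and 0.39 on day 6, where the medians of all genes tested were 0.01 and -0.01. DESeq2 passed 4 of 9 on each day, adding Nfkb2, Traf3 and Birc3 on day 1 and Traf2 and Birc3 on day 6, among 209 and 509 genes that it called in all. Macrophage RNA moved with the day-6 group: 9 macrophage genes summed to 182.5 to 246.4 CPM in controls, 161.7 to 250.6 CPM on day 1 and 480.4 to 719.7 CPM on day 6, with 8 of 9 genes not overlapping controls and none at 0. Summed genes of T and B lymphocytes were at 3.00 to 3.42 CPM in controls, 2.39 to 2.83 CPM on day 1 and 5.28 to 6.42 CPM on day 6. Those of spinal neurons and glia were at 17.3 to 30.9 CPM, 24.9 to 31.2 CPM and 33.8 to 44.3 CPM. Both sums were highest on day 6 without overlap. Gene by gene, 2 of 10 lymphocyte genes lay above controls without overlap and 5 of 10 above day 1. Of the spinal genes, 1 of 10 lay above controls, where the share of all genes tested was 8.22%. Against day 1, 1 of the 10 spinal genes lay above and 1 below. The share of all genes tested that lay above day 1 is not given here, so the counts above day 1 have no background. Keratinocyte genes summed to 59370 to 99270 CPM in controls and 53560 to 64150 CPM on day 1. These sums overlapped, but 3 of 8 genes were lower on day 1 without overlap, where the share of all genes tested was 8.60%. The part of these cells in the paw values was not tested.

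In DRG, on the side of the injected paw, the same transcription factor pair rose on day 1 and was back near control levels on day 6. Nfkb2 stood at 21.4, 21.2 and 16.0 CPM in controls, at 59.7, 61.9 and 47.7 CPM on day 1 and at 16.8, 22.7 and 24.4 CPM on day 6. Relb was at 15.2, 13.3 and 11.1 CPM in controls, at 24.6, 27.4 and 20.7 CPM on day 1 and at 15.6, 14.8 and 13.9 CPM on day 6. For both genes every day-1 library was above all 6 other DRG libraries, and day 6 overlapped the controls.

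On day 1 the fold change was 2.89 for Nfkb2 (95% interval 2.21 to 3.78, edgeR adjusted p = 0.0139) and 1.84 for Relb (1.52 to 2.23, adjusted p = 0.0228), so that 2 of 9 members were called against 0.168% of all 15461 genes tested in DRG. Against day 1, Nfkb2 fell by day 6 to 0.38 of its level (0.29 to 0.49, adjusted p = 0.0245), 1 of 9 members against 0.103% of all genes tested. Relb, at 0.61 (0.50 to 0.74), did not pass that comparison (adjusted p = 0.0795). With day 6 set against controls, 0 of 15461 genes passed (0.00%; 557 had an unadjusted p under 0.05, and DESeq2 called 2), and the intervals of the fold change were 0.84 to 1.42 for Nfkb2 and 0.93 to 1.36 for Relb.

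Each day-1 call in DRG passed in 2 of the 6 fits that left out a library. Relb passed without DRG control 1 and without day-1 library 3 and reached an adjusted p of 0.130 in the others; Nfkb2 passed without control 3 and without day-1 library 3 and reached 0.110 in the others. The call of Nfkb2 between the days was lost in 4 of 6 such fits, all but those without day-1 library 3 and day-6 library 1 (adjusted p up to 0.138), and with the muscle score as a covariate, at a log2 difference of -1.41 (adjusted p = 0.0690). Fitting only the 2 groups compared ended the calls of Relb on day 1 (adjusted p = 0.109) and of Nfkb2 between the days (adjusted p = 0.0600), and let Relb pass between the days (adjusted p = 0.0484).

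**Figure D2:**
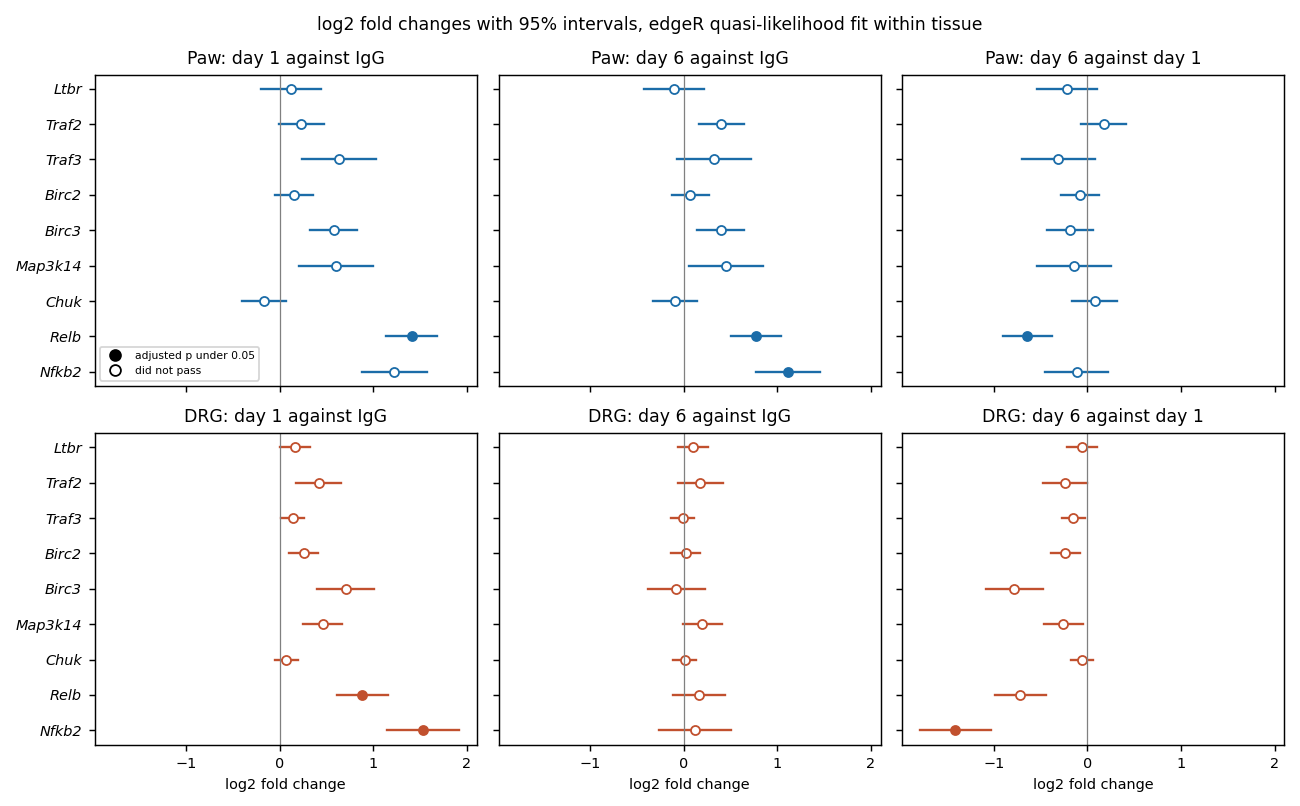
log2 fold changes (x axis) of the 9 genes in 6 comparisons, with 95% intervals of the edgeR fit; filled points have an adjusted p under 0.05. In DRG all 9 values lie above 0 on day 1 against IgG and below 0 on day 6 against day 1, and those on day 6 against IgG lie between -0.08 and 0.20.

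All 4 adaptor genes had positive log2 fold changes in DRG on day 1, as in paw, and none passed. Birc3 was at 6.39, 5.75 and 8.05 CPM in controls, at 11.8, 11.4 and 9.76 CPM on day 1 and at 6.80, 6.59 and 5.77 CPM on day 6. Day 1 was above all other DRG libraries, with a log2 fold change of 0.70 ± 0.14 against controls (adjusted p = 0.103), and day 6 against day 1 was at -0.78 ± 0.14 (adjusted p = 0.0885); neither passed. Birc2 was at 34.2 to 36.1 CPM in controls and 38.7 to 44.6 CPM on day 1, a log2 fold change of 0.26 ± 0.07 (adjusted p = 0.317). Traf2 was at 17.3 to 19.1 CPM and then 21.9 to 27.1 CPM, with 0.42 ± 0.11 (adjusted p = 0.286). Traf3 differed less in DRG than these, from 46.8 to 52.5 CPM in controls to 52.7 to 56.4 CPM on day 1 (0.14 ± 0.06, adjusted p = 0.612).

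Map3k14 in DRG was at 12.3, 11.4 and 11.0 CPM in controls, at 16.6, 16.6 and 14.3 CPM on day 1 and at 12.8, 12.4 and 14.5 CPM on day 6. Its log2 fold change on day 1 was 0.46 ± 0.09 (adjusted p = 0.125), and on day 6 its libraries were all still above the controls, at 0.20 ± 0.09 (adjusted p = 0.995). Chuk was at 36.3 to 39.8 CPM in controls and 38.6 to 40.9 CPM on day 1 (0.07 ± 0.06, adjusted p = 0.879). Ltbr was at 32.2, 34.7 and 35.4 CPM in controls and 37.3, 40.9 and 36.2 CPM on day 1, groups that did not overlap but whose fold change interval, 0.999 to 1.25, reached below 1.

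Over the 9 genes, 8 had every DRG day-1 library above every control, all but Chuk, against 7.55% of all genes tested. On day 6 this held for Map3k14 (1 of 9, against 5.16%), and 5 of 9 (Traf3, Birc2, Birc3, Relb and Nfkb2) had every day-6 library below every day-1 library, against 6.47%. The median log2 fold change on day 1 was 0.42, with 9 of 9 positive, where the median of all genes tested was 0.00. DESeq2 passed 4 of 9 on day 1, adding Birc3 and Map3k14 among 131 genes in all, and 3 of 9 between the days, adding Relb and Birc3. The 9 macrophage genes summed to 109.4 to 132.1 CPM in DRG controls, 146.3 to 153.6 CPM on day 1 and 138.2 to 140.9 CPM on day 6, with 6 of 9 higher and 1 of 9 lower on day 1 without overlap and none at 0. Endothelial genes, at 273.6 to 327.6 CPM in controls and 284 to 359 CPM on day 1, overlapped. The 6 neutrophil genes were lowest on day 1, at 41.8 to 105.6 CPM against 107.6 to 225.9 CPM in controls and 107.9 to 320 CPM on day 6, with 3 of 6 genes lower without overlap in each comparison. The shares of all genes tested in these directions are not given here, so the neutrophil counts have no background. Fibroblast genes went from 3736 to 3833 CPM on day 1 to 2623 to 3142 CPM on day 6 (4 of 7 lower without overlap). Meningeal genes went from 4232 to 4450 CPM to 3355 to 3539 CPM (4 of 10). Dcn, Lum, Col1a1 and Col1a2 are in both of these lists, so their falls are not independent. In both lists the controls, at 2757 to 4015 and 3039 to 4624 CPM, overlapped day 1. The part of these cells in the DRG values was not tested.

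Whether the response itself differed between paw and DRG was tested as an interaction over 18 libraries. On day 1 no gene of 16461 passed (0.00%; 1594 had an unadjusted p under 0.05, and DESeq2 called 60), and among the members Relb had the smallest p, with a response larger in paw by 0.52 ± 0.18 on the log2 scale (adjusted p = 0.402). Nfkb2 had -0.31 ± 0.23 (interval -0.81 to 0.19), so the data bound but do not separate the tissues. On day 6 the response was larger in paw by 0.98 ± 0.24 for Nfkb2 and 0.60 ± 0.18 for Relb, and neither passed (adjusted p = 0.104 and 0.256; 0 of 9 members against 0.498% of all genes tested). DESeq2 passed Nfkb2 on day 6, at 0.95.

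The balance of the transcription factor pair was also read within a library, as reads of Nfkb2 per read of Relb, a measure free of library size and chosen after the values were seen. In DRG there were 1.41, 1.60 and 1.44 Nfkb2 reads per Relb read in controls, 2.42, 2.26 and 2.30 on day 1, and 1.08, 1.53 and 1.76 on day 6. The day-1 libraries stood above all other DRG libraries. In paw the ratio was 2.06, 1.88 and 1.64 in controls, 1.76, 1.63 and 1.50 on day 1 and 2.58, 2.41 and 2.06 on day 6, so that the highest ratios came on the later day there. A 2-sided exact permutation test gave p = 0.1, the smallest possible with 3 against 3, for DRG day 1 against controls (log2 difference 0.65), DRG day 6 against day 1 (-0.71) and paw day 6 against day 1 (0.52), each 0.233 after adjustment over 7 comparisons. Nfkb2 exons overlap 2 genes on the opposite strand in GENCODE M21, Psd over 7.1% of exon bases and AC114539.1 over 12.6%, and since the strand setting of the counting is not given in the sources used here, reads of those stretches cannot be assigned with certainty. Map3k14 shares 3.2% of its exon bases with 1700028N14Rik on the same strand.

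**Figure D3:**
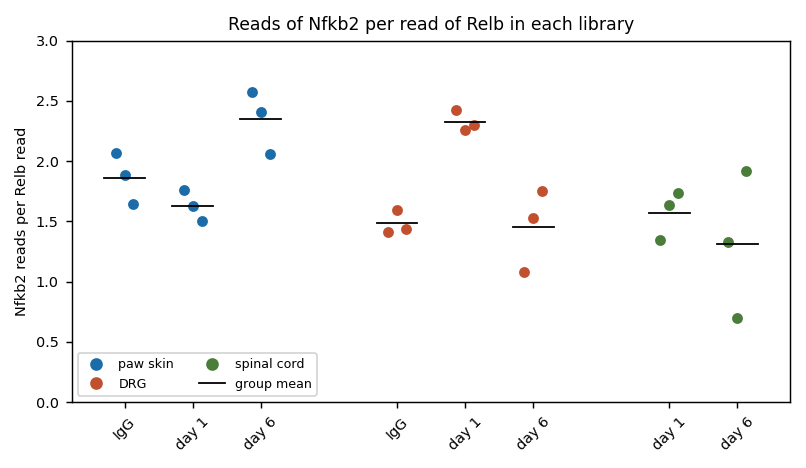
Reads of Nfkb2 per read of Relb (y axis, from 0) in each library by group (x axis); points are libraries and black lines means of 3. DRG day 1, at 2.26 to 2.42, lies above the other DRG groups, and paw day 6, at 2.06 to 2.58, lies above paw day 1.

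In spinal cord, RNA of the 9 genes differed little between the days, and none passed the test. Relb was at 6.88, 7.89 and 5.98 CPM on day 1 and at 7.19, 6.21 and 6.82 CPM on day 6, a fold change with an interval of 0.77 to 1.23. Nfkb2 was at 9.25, 12.9 and 10.4 CPM and then at 9.56, 4.32 and 13.1 CPM, where day-6 library 2 alone was low and the interval of 0.43 to 1.56 is wide. No gene of 15096 passed (0.00%; 1464 had an unadjusted p under 0.05, and DESeq2 called 65), but 818 passed without day-6 library 2, 0 of them members.

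Traf3 was the member whose cord groups did not overlap, at 97.1, 93.0 and 101.6 CPM on day 1 and 84.9, 91.0 and 86.3 CPM on day 6 (log2 difference -0.15 ± 0.06, adjusted p = 0.493; 1 of 9 lower without overlap, against 8.21% of all genes tested). Ltbr was at 18.2, 23.6 and 20.3 CPM on day 1 and 26.0, 21.8 and 27.7 CPM on day 6 (0.28 ± 0.13, adjusted p = 0.522). Its 3 highest libraries, day-1 library 2 and day-6 libraries 1 and 3, were also those with the highest meningeal score, the mean log2 CPM of 10 genes of the meninges: 5.49, 5.79 and 5.59, against 4.12 to 4.56 in the others. The same libraries held the highest Map3k14 levels, 7.15, 6.83 and 7.71 CPM against 4.49 to 4.93 CPM. This was also so for Traf2, at 18.84, 17.11 and 17.18 CPM against 14.75 to 16.33 CPM. Birc3 had 4.535, 5.053 and 4.358 CPM there, against 2.468 to 4.238 CPM. These libraries also had the highest scores of Schwann and satellite glia genes, 9.90, 10.46 and 10.45 against 8.85 to 9.63 in the others. The same held for the endothelial, macrophage and fibroblast lists, the last of which shares genes with the meningeal list. The meningeal score therefore does not single out the meninges. With the meningeal score as a covariate the log2 difference between the days was 0.16 for Ltbr. For Map3k14 it went from 0.22 to -0.0045, for Nfkb2 from -0.29 to -0.70 and for Birc3 from -0.10 to -0.37. Traf2, Birc2 and Relb also moved down, to -0.11, 0.041 and -0.12. Traf3 and Chuk moved up, to -0.12 and -0.042. No member passed the threshold with this covariate. The 6 neutrophil genes summed to 14.6 to 29.1 CPM on day 1 and 54.9 to 360 CPM on day 6, and 5 of 6 did not overlap. Genes of T and B lymphocytes, at 1.07 to 2.04 and 2.65 to 13.5 CPM (4 of 10 higher without overlap, Cd8a at 0 on day 1), were also higher on day 6. So were those of Schwann and satellite glia, at 23150 to 25820 and 28800 to 35330 CPM (3 of 8). Of the endothelial genes, 4 of 9 were higher without overlap although their sums overlapped. The share of all genes tested that was higher without overlap is not given for cord, so these counts have no background. The part of these cells in the cord values was not tested.

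**Figure D4:**
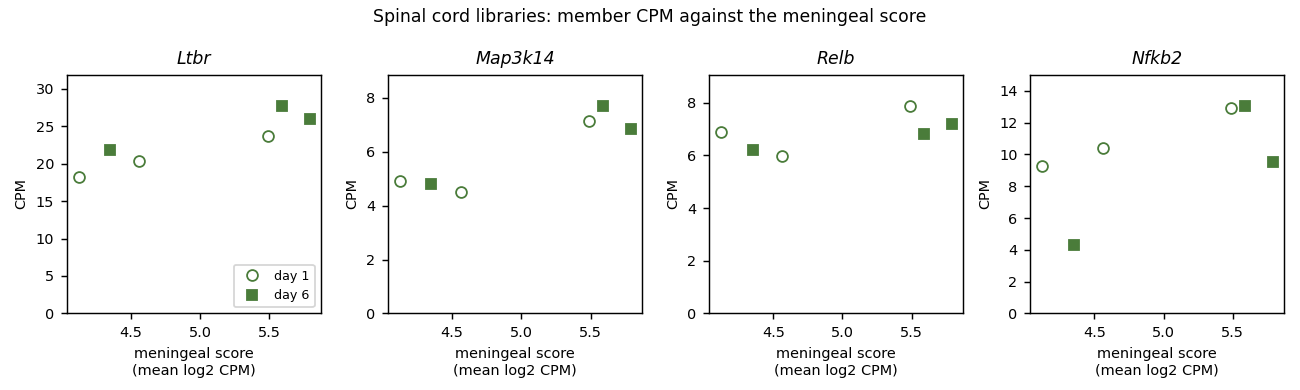
CPM of Ltbr, Map3k14, Relb and Nfkb2 (y axes, from 0) against the meningeal score (x axes, mean log2 CPM of 10 genes) in the 6 spinal cord libraries; open circles are day 1 and squares day 6. For Ltbr and Map3k14 the 3 libraries with scores of 5.49 or more hold the 3 highest levels. For Relb and Nfkb2 these 3 overlap the others, though the highest level of each also lies among them.

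Levels were then compared between genes per kb of exon and between tissues after scaling all 24 libraries together. In paw controls Ltbr was the most abundant of the 9, at 23.7 ± 3.72 CPM per kb (SD, n = 3), followed by Chuk at 17.4 ± 2.23, whose libraries overlapped those of Ltbr, and Birc2 at 13.4 ± 0.553. Map3k14 was lowest, at 3.95 ± 0.691 CPM per kb. On paw day 1 Relb came next after Ltbr, at 17.8 ± 0.808 CPM per kb, and overlapped neither Ltbr above it nor Chuk below. In DRG controls the order again began with Ltbr, Chuk and Birc2, at 16.1 ± 0.790, 10.8 ± 0.516 and 9.61 ± 0.276 CPM per kb, and ended with Birc3 at 1.57 ± 0.275. Nfkb2, at 4.60 ± 0.724 CPM per kb in DRG controls above Map3k14 and Birc3 alone, came next after Ltbr on day 1 at 13.2 ± 1.82 CPM per kb, overlapping Birc2 below it. In spinal cord Traf3 came first on day 1, at 13.2 ± 0.665 CPM per kb and overlapping no other member. Ltbr, at 9.52 ± 1.23, lay below Chuk and overlapped Birc2. On cord day 6 Traf3, Ltbr, Chuk and Birc2, at 11.7 ± 0.614, 11.4 ± 1.26, 11.0 ± 0.205 and 11.0 ± 0.580 CPM per kb, overlapped in turn, so that their order was not resolved. These levels depend on the exon lengths of GENCODE M21, which may differ from the transcripts present.

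**Figure D5:**
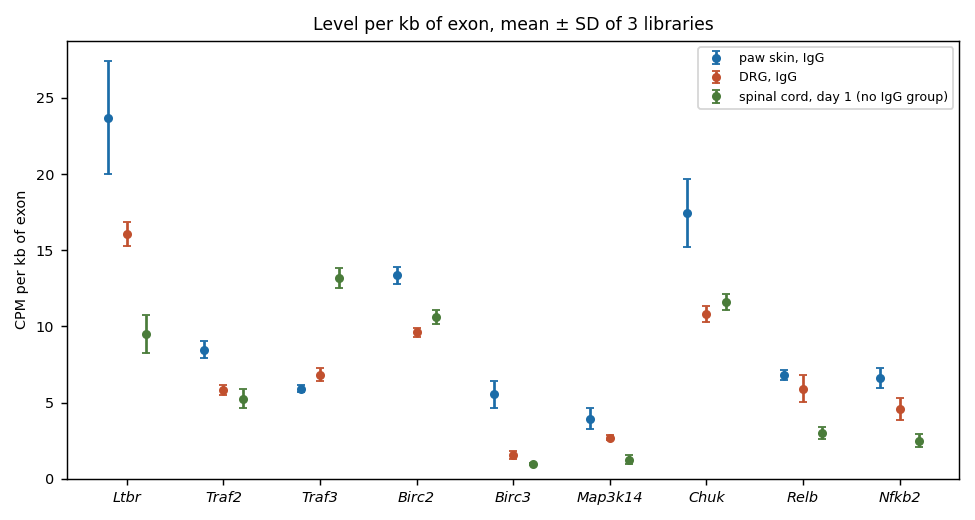
CPM per kb of exon (y axis, linear, from 0) of the 9 genes (x axis) in paw IgG, DRG IgG and spinal cord day 1, as mean and SD of 3 libraries scaled together over all 24. Ltbr is highest in paw at 23.7 and in DRG at 16.1, while Traf3 is highest in spinal cord on day 1 at 13.2.

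Across the 8 groups, the order of Relb was paw day 1 at 39.4 ± 1.79 CPM, paw day 6 at 25.8 ± 2.55, DRG day 1 at 24.0 ± 3.35, then paw controls at 15.0 ± 0.773, DRG day 6 at 14.6 ± 0.806 and DRG controls at 13.1 ± 2.01, with both cord groups at 6.69 ± 0.884 and 6.43 ± 0.375 CPM. Paw day 6 and DRG day 1 overlapped, as did paw controls, DRG day 6 and DRG controls in turn, and the cord groups with each other. Nfkb2 had paw day 1, paw day 6 and DRG day 1 overlapping in turn at 64.3 ± 6.08, 60.6 ± 9.63 and 55.9 ± 7.66 CPM, and all other groups at or under 28.0 ± 2.79 CPM, the level of paw controls. For Ltbr the 3 paw groups came first (46.9 to 53.5 CPM on average), the 3 DRG groups next (33.8 to 37.8) and cord last (20.1 to 24.0), and no group of one tissue overlapped that of another. Birc3 had the same order of tissues, with paw controls at 23.5 ± 3.72 CPM above DRG day 1 at 10.9 ± 1.08 CPM.

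In IgG-treated mice 6 of 9 members were lower in DRG than in paw and 0 higher, where 80.7% of all 16864 genes tested differed (40.2% lower, 40.5% higher). Birc3 differed most, by -1.81 ± 0.18 on the log2 scale, and Nfkb2, Relb and Traf3 did not pass (edgeR adjusted p = 0.0569, 0.135 and 0.0861). Nfkb2 passed with RLE scaling, with DESeq2 and with only these groups fitted, at -0.55, -0.55 and -0.49. On day 1, 6 of 9 were lower in spinal cord than in DRG and 1 higher, where 64.2% of genes differed (32.5% lower, 31.7% higher). The log2 differences were -2.41 ± 0.26 for Nfkb2, -1.84 ± 0.13 for Relb and -1.55 ± 0.19 for Map3k14, and 0.81 ± 0.11 for Traf3. Against paw on day 1, 8 of 9 were lower in cord and Traf3 higher, by 0.54 ± 0.11, where 83.4% of genes differed (42.2% lower, 41.2% higher). Most genes differed between these tissues, so the members' counts are a description.

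Genes whose pattern over the 9 libraries of a tissue was most like that of Relb or Nfkb2 were found by the root mean square difference of their centred log2 CPM, where 0 is an identical pattern. In paw the nearest of 15286 other genes was Meox1 for both, at 0.181 for Relb and 0.191 for Nfkb2. Bcl6b, at 0.189, Spink3, Ccdc164 and Hdx came next for Relb, and Neurl3, Ccdc164, Pilrb1 and Csf2rb for Nfkb2. The pair lay close to each other there, Nfkb2 ranking 10 for Relb and Relb 9 for Nfkb2, and Traf3, Birc3 and Map3k14 ranked 85, 118 and 193 for Relb, while Chuk ranked 9582. In DRG the nearest to Relb were Csf1 (0.102), Micall2, Nfkbie, Ptges and H2-K2, and to Nfkb2 were Csf2rb2 (0.181), Meox1, Apol10b, Cx3cl1 and Tnfaip3. Nfkb2 ranked 1550 for Relb there, while Relb ranked 12 for Nfkb2. The measure takes in the size of a change, and Nfkb2 varied more (SD of log2 CPM 0.767 against 0.432). Birc3 and Map3k14 ranked 50 and 58 for Relb in DRG, and Chuk 2953.

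The other genes of the pathway were few among the calls. Of 7 ligand genes, 5 in paw and 3 in DRG could be tested and 0 passed in any comparison of days; Ltb, which encodes the membrane-bound ligand chain, averaged between 0.415 and 0.888 CPM over the 8 groups. Of 6 other receptors that feed the same branch, 4 were tested in paw and 5 in DRG and spinal cord, and again 0 passed between days; Tnfrsf1b averaged 18.1 CPM in paw controls, 22.4 on day 1 and 36.6 on day 6. Of 16 regulators 1 fell, Tnfaip3, which encodes the ubiquitin-editing inhibitor A20, in DRG from day 1 to day 6. Tnfaip3 stood at 7.63 to 8.60 CPM in DRG controls, at 11.2 to 18.03 CPM on day 1 and at 6.78 to 7.80 CPM on day 6, and its fall was -1.05 ± 0.16 (log2, adjusted p = 0.0375).

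Of 11 genes of canonical NF-κB and its inhibitors, Nfkbie, which encodes IκBε, was the one past the threshold. It was at 3.06 to 4.81 CPM in paw controls, 11.4 to 14.8 CPM on day 1 and 10.4 to 15.8 CPM on day 6, and it passed in paw on day 6. In DRG it was at 9.50 to 10.4 CPM, rose to 16.7 to 20.3 CPM on day 1 and fell to 11.3 to 12.5 CPM on day 6. Its response on day 6 was larger in paw by 1.41 ± 0.24 (log2, adjusted p = 0.0226). Rela and Nfkb1, the subunits of the canonical dimer, had log2 fold changes against controls between -0.07 and 0.18 in both tissues and days, and did not pass. On paw day 1 Rela was at 79.5 to 87.7 CPM against 70.6 to 74.9 CPM in controls, without overlap. Nfkbia, Nfkbib and Nfkbie also lay above every control then, and Nfkbiz below, where the shares of all genes tested were 6.40% and 8.60%. The medians of this list were 0.00 in paw and 0.12 in DRG on day 1, with 5 of 11 and 10 of 11 values positive.

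Of 14 target genes of LTβR signalling, 9 were tested in paw and 7 in DRG. Ccl19 and Ccl21a, chemokine genes of lymphoid stroma, had 0 counts in every library. In DRG 6 of 7 had positive log2 fold changes on day 1, as did 7668 of all 15461 genes tested. Of the 7, 2 passed, the adhesion molecule genes Vcam1 and Icam1, against 0.168% of all genes tested. Both fell by day 6, by -2.07 ± 0.22 and -1.52 ± 0.18 on the log2 scale (adjusted p = 0.0196 and 0.0107), against 0.103% called. Vcam1 went from 9.58 to 16.5 CPM in controls to 48.5 to 67.9 CPM on day 1 and 13.1 to 14.5 CPM on day 6, and Icam1 from 3.46 to 4.23 CPM to 11.5 to 16.4 CPM and 3.62 to 5.65 CPM. In paw 7 of 9 were positive on day 1, as were 7764 of all 15287 genes tested, and 0 of 9 passed. Vcam1 was at 3.02 to 8.61 CPM in controls and 19.0 to 42.3 CPM on day 1, with no overlap and a log2 fold change of 2.23 ± 0.41 (adjusted p = 0.326). On day 1, 51 of 100 simulated 2-fold changes were recovered in paw and 85 in DRG, and 90 and 99 of 100 simulated 4-fold changes. Each simulation held both sets of changed genes, whereas 1 gene passed in the paw data and 26 in the DRG data. The adjustment was therefore stricter in the data, and these shares do not give the recovery there. With the same number of changed genes, fewer were recovered in paw, so the counts of calls in the 2 tissues are not like for like. The calls of these other genes also rest on few libraries. With 1 library left out, Icam1 and Nfkbie on DRG day 1 passed in all 6 fits and Vcam1 in 4, all but those without control 2 and day-1 library 1 (adjusted p up to 0.0786). Between the days in DRG, Tnfaip3 and Nfkbie passed in 1 of 6, without day-1 library 3 (adjusted p up to 0.207 and 0.150 in the others). Vcam1 passed in 2 of 6, without day-1 library 2 or 3 (up to 0.184). Icam1 passed in 3 of 6, without day-1 library 2 or 3 or day-6 library 1 (up to 0.0663). Nfkbie on paw day 6 passed in 2 of 6, without control 1 and without day-6 library 3 (up to 0.0926), and its difference between tissues in 8 of 12 (up to 0.0751). Fitting only the groups compared ended the calls of Vcam1 on DRG day 1 (adjusted p = 0.133), Tnfaip3 between the days in DRG (adjusted p = 0.109), Nfkbie on paw day 6 (adjusted p = 0.0716) and its difference between tissues (adjusted p = 0.0760). The muscle covariate ended those of Tnfaip3 and Nfkbie between the days in DRG (adjusted p = 0.117 and 0.0611). The median log2 fold change on day 1 was 1.82 over the 7 targets tested in DRG and 0.81 over the 9 tested in paw, which are not the same genes. In the fit of both tissues the median difference, paw minus DRG, was -0.13 over 9 targets, and 0 of 9 passed.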

How the data were processed

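Per the labels, libraries were made with a stranded kit for polyadenylated RNA from about 500 ng and read as 50 bp single ends. The authors deposited read counts per gene, unnormalized, 1 file per library; per the submitters' processing notes, bcl2fastq, TopHat2, HTSeq and the mm9 build were used (versions, annotation and strand setting are not given in the sources used here). The 5 summary lines of each file were removed. Of 24 replicate pairs, 0 were identical, and 0 columns were of other samples.

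Counts were tested with edgeR 4.0.16 (limma 3.58.1, R 4.3.3): quasi-likelihood F test, TMM, filterByExpr, robust dispersions, all groups of a tissue in 1 fit, 2-sided, Benjamini-Hochberg adjustment over all genes tested and a threshold of 0.05. Between tissues, the fit used 18 or 24 libraries. Errors are SD for levels and SE for log2 values, and intervals are 95%. All 9 members are named in every comparison. Other pathway genes are named where they passed, up to 3 per list and comparison by p. Those given without a pass (Ltb, Tnfrsf1b, Rela, Nfkb1, Nfkbia, Nfkbib, Nfkbiz, Ccl19, Ccl21a) were chosen after their values were seen. The members and gene lists were chosen with earlier results of these data known. Of 156 listed symbols 1 had no match. Alternatives were RLE scaling, no filter, DESeq2 1.42.0, a replicate block, fits of only the groups compared, muscle or meningeal covariates, and each library left out. The same steps were also run on simulated counts, with 100 genes changed 2-fold and 100 changed 4-fold. Of the 2-fold changes, 51, 45 and 54 were recovered in paw (day 1, day 6, between days) and 85, 84 and 76 in DRG. Of the 4-fold changes, 90, 89 and 91 were recovered in paw and 99, 98 and 94 in DRG. With so many changed genes the adjustment is less strict than where few pass, as on paw day 1 with 1 gene. Recovery in the data may therefore be lower. A gene that did not pass in paw may still have changed by 2-fold or more.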

Additional observations from a re-analysis of the deposited data

Results flagged for a closer look

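Differences between time points or tissues that passed a test of the difference itself are listed here, with log2 values from edgeR. In paw, Relb was lower on day 6 than on day 1 by -0.64 on the log2 scale. In DRG, day 6 was lower than day 1 for Nfkb2 (-1.41), Vcam1 (-2.07), Icam1 (-1.52), Tnfaip3 (-1.05) and Nfkbie (-0.65). Nfkbie had a day-6 response larger in paw than in DRG by 1.41, a call that ended with the replicate block and with only the groups compared (adjusted p = 0.0510 and 0.0760). The days differ in the number of injections as well as in time, and which of these the differences follow cannot be told apart.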

How the results depend on the processing

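All alternatives were planned. The number of members past the threshold moved with DESeq2 to 4 in paw on each day against controls, 4 in DRG on day 1, 3 in DRG between the days and 1 for the paw and DRG difference on day 6; genes in all moved to 209, 509 and 737 in paw (day 1, day 6, between days), 131, 2 and 105 in DRG, 65 in spinal cord, and 60 and 234 for the differences between tissues. Fits of only the groups compared gave 0 members and 0 genes in paw on day 1 and on day 6, 1 and 11 in DRG on day 1, and 31 genes for the day-6 difference between tissues. Without the filter, DRG between days had 3 members and 27 genes. The muscle covariate gave 0 members there and 352 genes in paw between days. With the meningeal covariate Map3k14 in cord reversed, to -0.0045.

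Same-numbered libraries did not deviate together (correlations -0.642 to 0.317 in paw, -0.692 to 0.241 in DRG, -0.60 to -0.18 in cord). With the replicate block, members past the threshold were 0 in paw on day 1, 1 on day 6 and 0 between the days, with 0 genes in all on paw day 1 and 34 for the day-6 tissue difference; the calls ended were Relb in paw on day 1, on day 6 and between the days (adjusted p = 0.155, 0.0736 and 0.112), Nfkb2 between days in DRG (0.0768), Vcam1 in DRG on day 1 and between days (0.0608 and 0.110) and the day-6 tissue difference of Nfkbie (0.0510), and Relb in DRG between days was gained (0.0196).

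Leaving out 1 library gave, for members, 0 to 1 in paw on day 1 and on day 6, 0 between the days, 0 to 2 in DRG on day 1 and between days, and 5 to 7 for DRG against paw; genes in all ranged over 0 to 1, 0 to 155 and 0 to 141 in paw, 8 to 35 and 1 to 24 in DRG, 0 to 818 in cord and 0 to 1 and 19 to 173 for the tissue differences. Uncalled log2 values that changed sign ranged as follows. In paw on day 6, Ltbr -0.22 to 0.021 and Chuk -0.17 to 0.0035. In DRG on day 6, Traf3 -0.050 to 0.031, Birc2 -0.038 to 0.061, Birc3 -0.18 to 0.073, Chuk -0.029 to 0.036 and Nfkb2 -0.0060 to 0.27; between days, Ltbr -0.10 to 0.0038. In cord, Traf2 -0.10 to 0.077, Birc3 -0.33 to 0.16, Relb -0.13 to 0.065 and Nfkb2 -0.65 to 0.049. Between paw and DRG, Ltbr on day 1 -0.16 to 0.074, and on day 6 Birc2 -0.0076 to 0.099 and Chuk -0.19 to 0.0032; cord against DRG, Chuk -0.0019 to 0.063. The cause was not tested.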
